A study of Mus musculus with 16 samples.

Results

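Cholesterol and fatty acid synthesis was examined through 28 genes chosen by function, out of 55385 genes in each table, in mouse primary hippocampal cultures. The 28 comprise 18 enzymes of the sterol pathway, 6 genes of its control and of sterol transport, and 4 genes of fatty acid synthesis. The rule that lists them uses no measured value, but they were chosen with earlier results of these data known. All 28 were found by symbol and all 28 passed the filter on low counts, with between 526 and 64226 estimated counts in every library.

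The cultures were dissociated hippocampi of newborn C57Bl/6N mice, infected with recombinant adeno-associated virus carrying either Control-shRNA or Dnmt3a1-shRNA, and then left at baseline or given bicuculline for 4 h. Bicuculline blocks GABA-A receptors and makes the neurons of such a network fire in bursts. All 4 groups therefore carry a virus, an shRNA expressed from a U6 promoter that is not restricted to neurons, and GFP under the chicken β-actin promoter. The 4 groups were Control-shRNA baseline, Control-shRNA bicuculline, Dnmt3a1-shRNA baseline and Dnmt3a1-shRNA bicuculline, with 4 libraries in each and 16 in all. The study used more than 1 shRNA against Dnmt3a1 and names Dnmt3a1-shRNA2 for this experiment. It gives 4 independent neuronal preparations per condition, which does not say whether the 4 conditions share preparations. Whole cultures were sequenced, so that fewer cells of a type and less RNA per cell cannot be told apart.

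The sterol pathway builds cholesterol from acetyl-CoA. Acat2 and Hmgcs1 make the first intermediates, Mvk, Pmvk, Mvd and Idi1 turn mevalonate into the isoprene units, Fdps and Fdft1 join these into squalene, Sqle and Lss close the ring to lanosterol, and Cyp51, Tm7sf2, Msmo1, Nsdhl, Hsd17b7, Ebp, Sc5d and Dhcr7 convert lanosterol into cholesterol. The transcription factors SREBP-1 and SREBP-2, encoded by Srebf1 and Srebf2, are held in the endoplasmic reticulum with SCAP by INSIG proteins when sterols are plentiful, and are carried to the Golgi and cleaved when sterols are scarce. Fasn and Acaca make saturated fatty acids from acetyl-CoA, and Scd1 and Scd2 desaturate them. Neurons and astrocytes of the brain make their own cholesterol, because lipoproteins of the blood do not cross the blood-brain barrier.

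The promoters of genes of this kind are known to hold sterol regulatory elements (SRE) beside sites for the cofactors NF-Y and Sp1. The next sequences are shown because they belong to the most highly expressed sterol enzyme (Hmgcs1), the sterol enzymes that rose most with bicuculline (Cyp51 and Ebp), the control gene that rose with the knockdown (Insig1) and the fatty acid synthase that fell with bicuculline (Fasn). Each is the 200 bases nearest the gene that lie before both the RefSeq start site and the annotated gene, 5′ to 3′ on the gene's strand (GRCm38.p6). They cover chr13:119690151-119690350 (+) for Hmgcs1, chr5:4104747-4104946 (-) for Cyp51, chrX:8193513-8193712 (-) for Ebp, chr5:28071163-28071362 (+) for Insig1 and chr11:120824548-120824747 (-) for Fasn. Capitals mark letters that match one of 4 motifs on either strand, the SRE as TCACNCCAC, the NF-Y box as CCAAT, the E-box as CACGTG and the Sp1 box as GGGCGG.
Hmgcs1: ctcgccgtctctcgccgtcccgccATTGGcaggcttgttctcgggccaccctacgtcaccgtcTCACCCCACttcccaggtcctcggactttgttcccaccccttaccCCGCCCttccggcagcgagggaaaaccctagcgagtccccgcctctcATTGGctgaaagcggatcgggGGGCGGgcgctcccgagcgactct
Cyp51: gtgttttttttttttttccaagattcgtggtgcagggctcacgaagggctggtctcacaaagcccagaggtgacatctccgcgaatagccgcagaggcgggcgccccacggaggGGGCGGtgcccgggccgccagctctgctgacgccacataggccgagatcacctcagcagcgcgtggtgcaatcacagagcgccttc
Ebp: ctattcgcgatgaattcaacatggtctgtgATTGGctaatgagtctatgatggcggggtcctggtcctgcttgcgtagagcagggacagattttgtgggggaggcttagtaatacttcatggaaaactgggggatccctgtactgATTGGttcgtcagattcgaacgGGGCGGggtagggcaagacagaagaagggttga
Insig1: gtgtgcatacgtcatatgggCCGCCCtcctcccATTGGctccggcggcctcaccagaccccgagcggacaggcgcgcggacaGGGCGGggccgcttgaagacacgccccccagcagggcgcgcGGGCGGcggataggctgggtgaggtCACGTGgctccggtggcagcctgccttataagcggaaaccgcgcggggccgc
Fasn: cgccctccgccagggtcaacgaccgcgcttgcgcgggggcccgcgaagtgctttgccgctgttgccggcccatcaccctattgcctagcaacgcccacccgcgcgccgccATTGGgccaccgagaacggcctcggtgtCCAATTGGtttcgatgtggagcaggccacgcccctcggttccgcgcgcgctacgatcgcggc

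The SRE letters stood in the Hmgcs1 promoter, from position -137 to -129 before the start site, where they read TCACCCCAC. In windows of 250 bases before to 50 bases after the start sites, 22 of the 28 genes could be matched by symbol, and Hmgcs1 was the 1 gene of these 22 with the SRE letters (4.55%), against 1.44% of 27025 genes with a window. NF-Y letters were found for 19 of 22 (86.4%), against 41.1% of all genes, and Sp1 letters for 19 of 22 (86.4%), against 38.2%. E-box letters were found for 5 of 22 (22.7%), namely Hsd17b7, Insig1, Dhcr7, Sc5d and Scap, against 8.09% of all genes. In the Fasn sequence, NF-Y letters of opposite strands overlap at the run CCAATTGG. A match is a description of these letters, and a window without a match says nothing of binding elsewhere.

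The levels of the genes were first compared as TPM, a unit scaled to transcript length and library total that allows genes to be set beside each other. Hmgcs1, the cytosolic HMG-CoA synthase, was highest, with a mean over all libraries of 895 TPM, followed by Scd2, the main stearoyl-CoA desaturase of brain, at 638 TPM and Fdps, the farnesyl diphosphate synthase, at 531 TPM. The lowest were Insig2 at 25.4 TPM and Srebf1 at 23.9 TPM. Srebf2 was higher than its paralogue Srebf1, at 244 TPM, and Insig1 was higher than Insig2, at 147 TPM. Summed over the 18 sterol enzymes, the level was 4058 ± 373 TPM (SD, n = 4) in Control-shRNA baseline, 3980 ± 335 in Control-shRNA bicuculline, 3849 ± 414 in Dnmt3a1-shRNA baseline and 4106 ± 379 in Dnmt3a1-shRNA bicuculline. These sums overlapped among all 4 groups. Summed over the 4 fatty acid genes, the level was 1207 to 1268 TPM in Control-shRNA baseline, 695 to 941 in Control-shRNA bicuculline, 1331 to 1485 in Dnmt3a1-shRNA baseline and 919 to 1027 in Dnmt3a1-shRNA bicuculline, so that every bicuculline library lay below every baseline library.

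**Figure D1:**
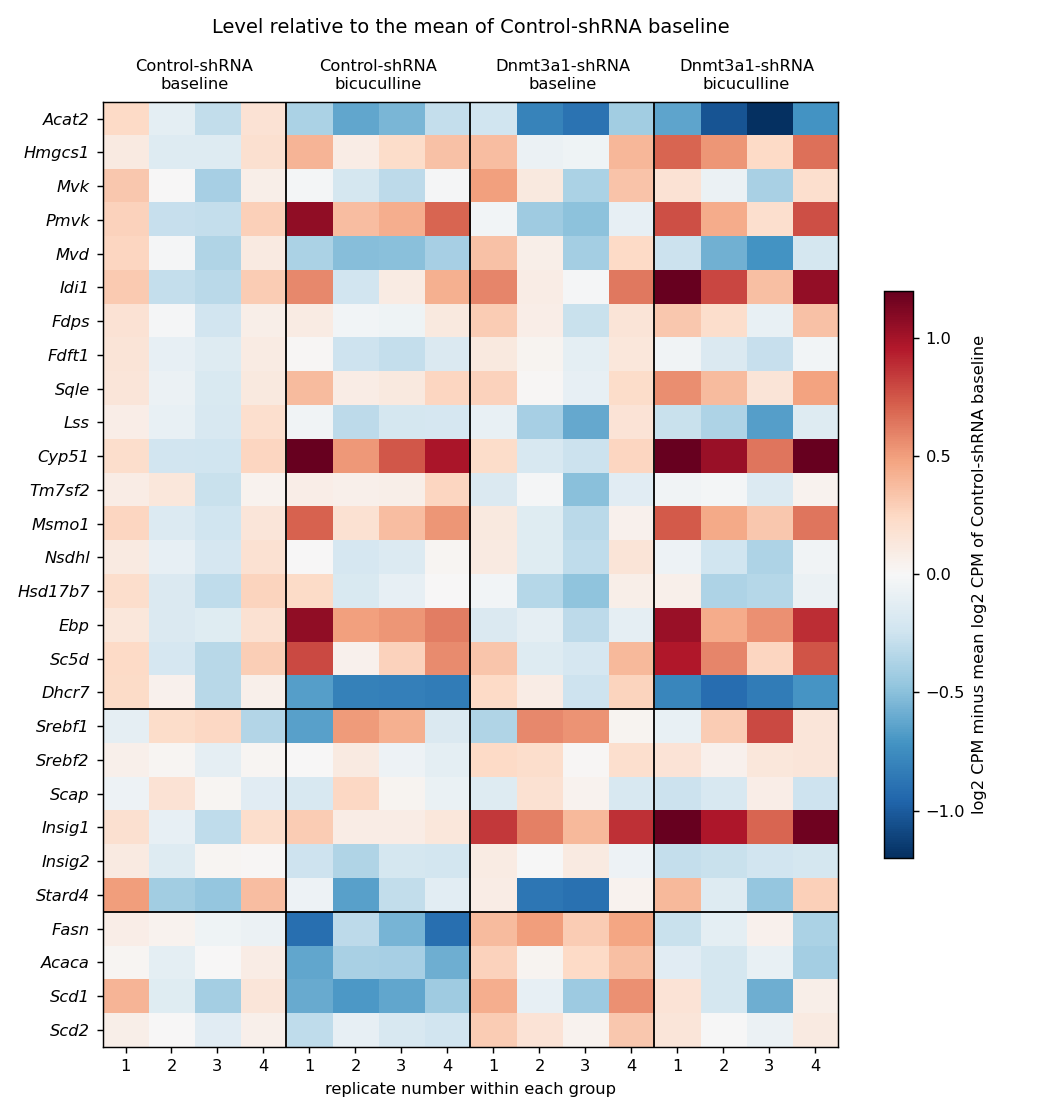
Level of the 28 genes (rows, in 3 blocks of 18, 6 and 4) in the 16 libraries (columns, by group and replicate number), as log2 CPM minus the mean log2 CPM of the 4 Control-shRNA baseline libraries. Cyp51, Ebp and Pmvk are red and Dhcr7, Fasn and Acaca mostly blue in bicuculline columns, Insig1 is red in Dnmt3a1-shRNA columns, and replicates 1 and 4 of a group are redder than 2 and 3 for most sterol enzymes.

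Between libraries, each gene was compared as CPM, counts scaled to library size with the trimmed mean of M-values (TMM), with edgeR's quasi-likelihood test over all 17222 genes that passed the filter. A gene was called when its Benjamini-Hochberg adjusted p was below 0.05 and its absolute log2 fold change above 0.5. The libraries held between 28912697 and 29586355 estimated counts. Dnmt3a, the gene targeted, was at 312 ± 13.8 CPM (SD, n = 4) in Control-shRNA baseline and 44.5 ± 3.66 in Dnmt3a1-shRNA baseline, and at 326 ± 11.8 and 45.3 ± 1.72 CPM with bicuculline, which left 14.2% and 13.9%. Gene counts do not separate its isoforms.

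The first comparison asked how 4 h of bicuculline changed these genes. In Control-shRNA cultures 3 sterol enzymes were called higher (Cyp51, Ebp and Pmvk) and 1 sterol enzyme and 2 fatty acid genes were called lower (Dhcr7, Fasn and Scd1). The 3 of 28 called higher are 10.7%, beside 10.8% of all genes, and the 3 called lower are 10.7%, beside 11.1%. In Dnmt3a1-shRNA cultures 6 sterol enzymes were called higher (Cyp51, Ebp, Pmvk, Msmo1, Sc5d and Idi1), which is 21.4% of the 28 beside 12.6% of all genes, and 3 genes were called lower (Dhcr7, Fasn and Mvd), which is 10.7% beside 13.2%. The groups did not overlap for 9 genes in Control-shRNA (32.1%, beside 39.7% of all genes) and for 8 in Dnmt3a1-shRNA (28.6%, beside 40.4%). The median log2 fold change of the 28 genes was -0.02 in both, beside medians of all genes of 0.01 and -0.01. Within the pathway, some enzymes rose and others fell.

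Cyp51, the lanosterol 14-alpha demethylase (ENSMUSG00000001467.5, chr5:4081145-4104746, GRCm38), rose most. Its level was 313, 230, 228 and 323 CPM in the 4 Control-shRNA baseline libraries and 624, 387, 452 and 533 CPM in the Control-shRNA bicuculline libraries. In Dnmt3a1-shRNA it was 314, 236, 226 and 322 CPM at baseline and 698, 554, 422 and 630 CPM with bicuculline. Every bicuculline library was above every baseline library of either shRNA. The log2 fold change was 0.87 (SE 0.18, adjusted p = 0.00066) in Control-shRNA and 1.07 (SE 0.18, adjusted p = 7.5e-05) in Dnmt3a1-shRNA, and the libraries of the same number moved by 0.721 to 0.996 and by 0.90 to 1.23.

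Ebp, the sterol isomerase that shifts the double bond of the ring (ENSMUSG00000031168.14, chrX:8185329-8193512), was at 30.4, 24.5, 24.9 and 31.3 CPM in Control-shRNA baseline and at 57.9, 38.9, 40.0 and 42.2 CPM in Control-shRNA bicuculline. In Dnmt3a1-shRNA it was at 24.4, 25.6, 22.2 and 25.7 CPM at baseline and at 56.5, 37.6, 40.4 and 51.2 CPM with bicuculline. No bicuculline library overlapped with a baseline library. The log2 fold changes were 0.69 (SE 0.14, adjusted p = 0.00065) and 0.92 (SE 0.14, adjusted p = 3.1e-05). In Control-shRNA the rise of Ebp was 0.453 on log2(TPM + 1) and 0.461 on log2(TPM + 0.1), under the fold threshold.

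Pmvk, the phosphomevalonate kinase (ENSMUSG00000027952.16, chr3:89454541-89469013), stood at 67.8, 46.2, 46.1 and 68.3 CPM in Control-shRNA baseline and at 117, 72.6, 75.7 and 90.7 CPM with bicuculline. In Dnmt3a1-shRNA it stood at 55.0, 41.7, 39.9 and 52.2 CPM at baseline and at 96.0, 76.5, 64.6 and 95.8 CPM with bicuculline. The groups did not overlap within either shRNA. The log2 fold changes were 0.64 (SE 0.18, adjusted p = 0.0071) and 0.82 (SE 0.18, adjusted p = 0.00095). With library sizes alone in place of TMM, the rise of Pmvk in Control-shRNA was 0.48 and fell under the fold threshold, on the TPM scales it was 0.431 and 0.434, and without Control-shRNA bicuculline replicate 1 it was 0.48.

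Msmo1, the sterol C4-methyl oxidase, was called in Dnmt3a1-shRNA, from 315, 262, 232 and 301 CPM at baseline to 484, 397, 364 and 454 CPM with bicuculline, without overlap. Its log2 fold change was 0.61 (SE 0.13, adjusted p = 0.00096), and in Control-shRNA it was 0.45 (SE 0.13, adjusted p = 0.011), under the fold threshold. Sc5d, the sterol C5 desaturase, went from 207, 148, 143 and 215 CPM to 320, 247, 196 and 278 CPM in Dnmt3a1-shRNA, where the groups overlapped. Its log2 fold change was 0.55 (SE 0.19, adjusted p = 0.025), and 0.42 (SE 0.19, adjusted p = 0.083) in Control-shRNA. Idi1, the isopentenyl diphosphate isomerase, went from 272, 193, 180 and 280 CPM to 418, 316, 234 and 377 CPM in Dnmt3a1-shRNA, with overlap, a log2 fold change of 0.54 (SE 0.21, adjusted p = 0.045). In Control-shRNA it was 0.22 (SE 0.21, adjusted p = 0.44). The call of Sc5d was lost without Dnmt3a1-shRNA baseline replicate 2 or 3 or bicuculline replicate 1 or 4, and the adjusted p over all omissions of a library ranged from 0.0089 to 0.089. That of Idi1 was lost without the same libraries, without Dnmt3a1-shRNA bicuculline replicate 2 or without Control-shRNA bicuculline replicate 3, with adjusted p from 0.0125 to 0.143. With a block on the replicate number, the adjusted p in Control-shRNA was 8.4e-05 for Sc5d and 0.025 for Idi1, still under the fold threshold. In Dnmt3a1-shRNA it was 4.1e-06 for Sc5d and 1.6e-05 for Idi1.

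Dhcr7, which catalyses the last step to cholesterol (ENSMUSG00000058454.15, chr7:143823145-143848410), fell. It was at 230, 203, 155 and 205 CPM in Control-shRNA baseline and at 124, 112, 111 and 110 CPM in Control-shRNA bicuculline. In Dnmt3a1-shRNA it was at 231, 208, 166 and 237 CPM at baseline and at 114, 104, 110 and 120 CPM with bicuculline. All 8 bicuculline libraries lay below all 8 baseline libraries. The log2 fold changes were -0.79 (SE 0.11, adjusted p = 1.8e-05) and -0.91 (SE 0.11, adjusted p = 3.1e-06). The spread between libraries was also smaller with bicuculline, where the values of the 8 libraries ranged from 104 to 124 CPM.

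Mvd, the mevalonate diphosphate decarboxylase, and Acat2, the cytosolic acetoacetyl-CoA thiolase, lay on the lower side too. Mvd was at 185, 153, 120 and 167 CPM in Control-shRNA baseline and at 118, 108, 109 and 117 CPM with bicuculline, a log2 fold change of -0.47 (SE 0.15, adjusted p = 0.018) without a call. In Dnmt3a1-shRNA it went from 197, 162, 117 and 182 CPM to 129, 104, 94.1 and 134 CPM, where it was called at -0.51 (SE 0.15, adjusted p = 0.0089). Its call there was lost without Dnmt3a1-shRNA baseline replicate 1 or 4 or bicuculline replicate 2 or 3, when the log2 fold change was as small as -0.415, and with DESeq2, where it was -0.49. Acat2 had log2 fold changes of -0.47 (SE 0.16, adjusted p = 0.025) and -0.33 (SE 0.16, adjusted p = 0.10), and was called in neither.

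The other 9 sterol enzymes had log2 fold changes between -0.20 and 0.36 and were not called. Among them, Hmgcs1 had 0.26 (SE 0.13, adjusted p = 0.105) in Control-shRNA and 0.36 (SE 0.13, adjusted p = 0.025) in Dnmt3a1-shRNA, and Sqle, the squalene epoxidase, had 0.21 (SE 0.10, adjusted p = 0.12) and 0.29 (SE 0.10, adjusted p = 0.027). Both were higher with bicuculline in 4 of 4 pairs of libraries of the same number, for each shRNA. Fdps, Fdft1, Lss, Mvk, Nsdhl, Hsd17b7 and Tm7sf2 had no adjusted p below 0.05 in the fit without a replicate block. With the block, the adjusted p in Control-shRNA was 0.0011 for Hmgcs1 and 0.00048 for Sqle, and it was 0.00031 for Acat2 in Dnmt3a1-shRNA. For the 2 shRNAs it was 0.00345 and 0.00282 for Fdft1, 0.040 and 0.000148 for Insig1 and 0.0374 and 0.00243 for Stard4. For Nsdhl in Dnmt3a1-shRNA it was 0.022, and no call changed with the block. By position in the pathway, the rises called for both shRNAs lay at mevalonate phosphorylation (Pmvk) and in the steps after lanosterol (Cyp51, Ebp). The fall called for both lay at the final reduction (Dhcr7). The rises of Idi1, Msmo1 and Sc5d and the fall of Mvd were called in Dnmt3a1-shRNA alone. Whether position in the pathway went with direction was not tested.

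**Figure D2:**
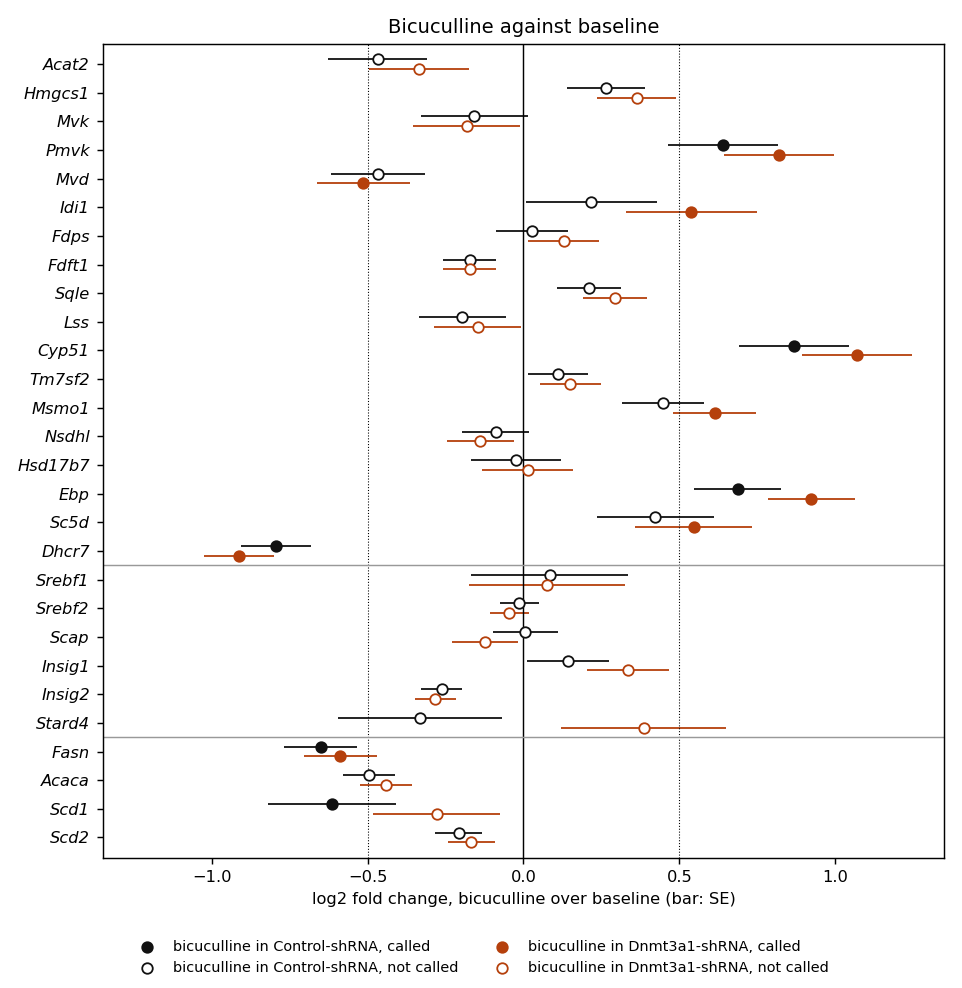
Log2 fold change of bicuculline over baseline (x axis) for the 28 genes (y axis) in Control-shRNA (black) and Dnmt3a1-shRNA (orange), with the SE as a bar; filled points were called and dotted lines mark the fold threshold of 0.5. Cyp51 (0.87 and 1.07) lies farthest to the right and Dhcr7 (-0.79 and -0.91) farthest to the left.

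All 4 fatty acid genes had values below 0 with bicuculline for both shRNAs, and did so in every alternative analysis and without any single library. Fasn, the fatty acid synthase (ENSMUSG00000025153.9, chr11:120805846-120824547), was at 1019, 992, 926 and 916 CPM in Control-shRNA baseline and at 513, 775, 654 and 513 CPM with bicuculline. In Dnmt3a1-shRNA it was at 1254, 1360, 1186 and 1338 CPM at baseline and at 798, 887, 996 and 739 CPM with bicuculline. The groups did not overlap within either shRNA. Fasn fell by log2 0.65 (SE 0.12, adjusted p = 0.00021) in Control-shRNA and by log2 0.59 (SE 0.12, adjusted p = 0.00044) in Dnmt3a1-shRNA.

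Acaca, the acetyl-CoA carboxylase of cytosolic fatty acid synthesis, went from 239, 217, 236 and 251 CPM to 153, 180, 179 and 157 CPM in Control-shRNA and from 286, 241, 278 and 301 CPM to 215, 203, 221 and 177 CPM in Dnmt3a1-shRNA. Here, too, the groups did not overlap, but the log2 fold changes of -0.50 (SE 0.08, adjusted p = 0.00011) and -0.44 (SE 0.08, adjusted p = 0.00026) missed the fold threshold. Scd1, a stearoyl-CoA desaturase, went from 133, 90.2, 75.1 and 110 CPM to 65.4, 61.8, 64.8 and 74.3 CPM in Control-shRNA, where it was called at -0.61 (SE 0.20, adjusted p = 0.022). In Dnmt3a1-shRNA it had -0.28 (SE 0.20, adjusted p = 0.29), with 135, 93.4, 73.6 and 146 CPM at baseline and 112, 86.1, 66.6 and 105 CPM with bicuculline, and the groups overlapped. The call of Scd1 was lost without Control-shRNA baseline replicate 1 or 4 or Control-shRNA bicuculline replicate 2, when its log2 fold change was as small as -0.46. Scd2, which was far more abundant, had -0.21 (SE 0.07, adjusted p = 0.033) and -0.17 (SE 0.07, adjusted p = 0.077). Blocked on the replicate number, the adjusted p in Dnmt3a1-shRNA was 0.045 for Scd1 and 0.021 for Scd2.

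With bicuculline, edgeR called 10.8% of all genes higher and 11.1% lower in Control-shRNA, and 12.6% and 13.2% in Dnmt3a1-shRNA. Of the 6 control and transport genes, edgeR, DESeq2 and voom with limma each called 0 with bicuculline. By each tool, 1 of the 6 had an unadjusted p below 0.05 in Control-shRNA and 2 in Dnmt3a1-shRNA. Insig2 had the lowest adjusted p, with 27.4, 22.8, 25.8 and 25.6 CPM in Control-shRNA baseline and 21.4, 19.8, 21.9 and 21.7 CPM with bicuculline, a log2 fold change of -0.26 (SE 0.07, adjusted p = 0.0036). In Dnmt3a1-shRNA it was -0.28 (SE 0.07, adjusted p = 0.0017), again without overlap of the groups. Srebf2 had -0.01 (SE 0.06) and -0.05 (SE 0.06), and Srebf1 had 0.08 (SE 0.25) in each, neither beyond its error. The error of Srebf1 was large, since it varied between 21.8 and 48.7 CPM within the Control-shRNA bicuculline libraries. Scap had 0.01 (SE 0.11) and -0.12 (SE 0.11).

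The choice of scaling mattered for the balance of directions. Without TMM, the all-gene median moved to a log2 value of -0.15 and -0.16 in the 2 bicuculline comparisons, and the share of lower genes among all called genes rose from 50.8% to 68.9% in Control-shRNA and from 51.1% to 67.2% in Dnmt3a1-shRNA. On log2(TPM + 1) these shares were 71.4% and 69.4%. The numbers of the 28 genes called higher and lower were then 2 and 6 (Control-shRNA) and 3 and 4 (Dnmt3a1-shRNA) without TMM, and 1 and 6 and 5 and 5 on log2(TPM + 1). Cyp51, Dhcr7 and Fasn were called in the same direction for both shRNAs in each of these analyses.

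The 2 bicuculline comparisons share no library. Of the 28 genes, 25 had the same sign in both, beside 86.2% of all genes, 5 were called in both (Cyp51, Ebp, Pmvk, Dhcr7 and Fasn) and 10 in at least 1, all with the same sign. The interaction term tested whether the response differed between shRNAs. None of the 28 genes had an adjusted p below 0.05 by edgeR, with or without a block on the replicate number. Beside this, 0.00% of all genes were called (0 of 17222 by edgeR and by voom with limma, 17 by DESeq2, and 3 by edgeR with the block). Without the block, none of the 28 had an unadjusted p below 0.05. With it, the unadjusted p was 0.00021 for Stard4, 0.012 for Idi1, 0.042 for Msmo1 and 0.048 for Scd1. The largest interaction was that of Stard4, which encodes a carrier of sterols between membranes. It was at 256, 135, 131 and 233 CPM in Control-shRNA baseline, at 173, 115, 147 and 166 CPM in Control-shRNA bicuculline, at 192, 99.1, 96.6 and 186 CPM in Dnmt3a1-shRNA baseline and at 236, 162, 131 and 220 CPM in Dnmt3a1-shRNA bicuculline. The groups overlapped in each comparison, and the bicuculline response was -0.33 (SE 0.26) in Control-shRNA and 0.39 (SE 0.26) in Dnmt3a1-shRNA. The interaction was 0.72 (SE 0.37, adjusted p = 0.9999), and blocking on the replicate number gave 0.69 (SE 0.15, adjusted p = 0.0915).

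**Figure D3:**
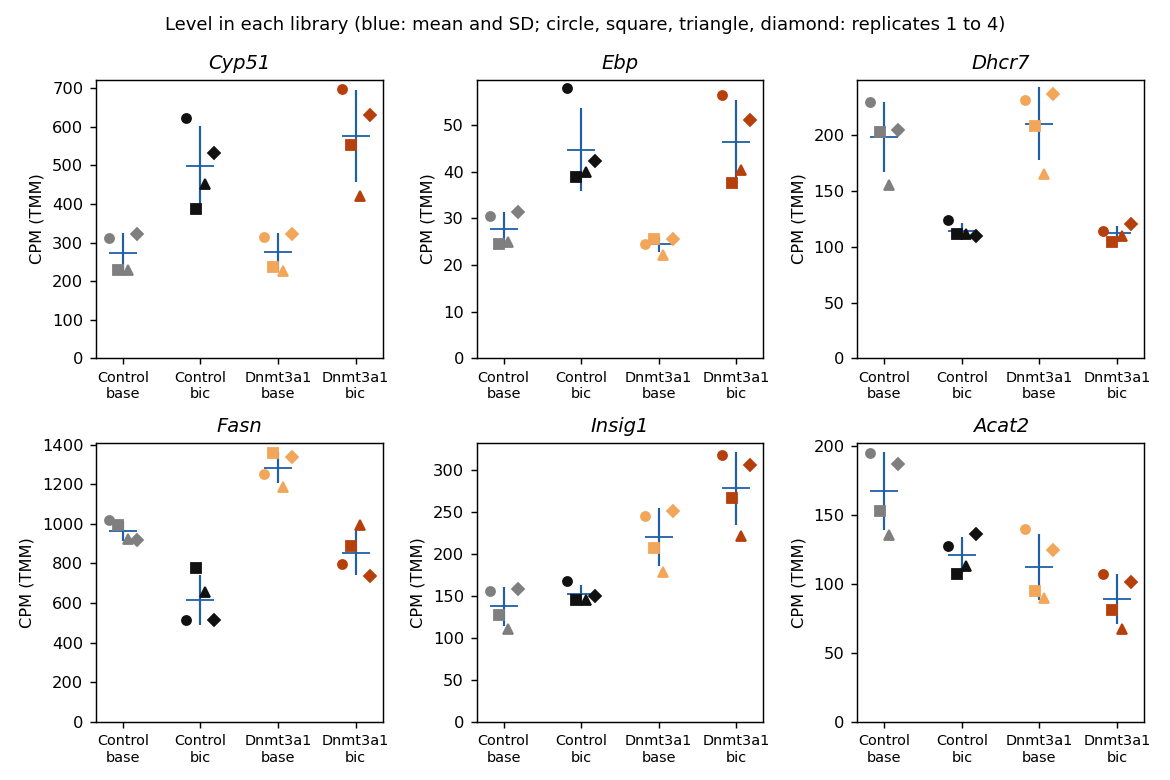
CPM in each of the 16 libraries (y axis, from 0) for 6 genes by group (x axis; Control and Dnmt3a1 stand for the shRNA, base for baseline and bic for bicuculline), with the mean and SD in blue and a symbol for each replicate number. Cyp51 and Ebp lie higher and Dhcr7 and Fasn lower with bicuculline, Insig1 lies higher and Acat2 lower with Dnmt3a1-shRNA, and replicates 1 and 4 lie above 2 and 3 for Cyp51, Insig1 and Acat2.

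The next comparison set Dnmt3a1-shRNA against Control-shRNA, here called the knockdown. The paper names 1 Dnmt3a1-shRNA sequence for this experiment, so reduced Dnmt3a1 and off-target effects of that sequence cannot be told apart. At baseline, 1 gene was called higher (Insig1, 3.57% of the 28 beside 1.76% of all genes) and 1 lower (Acat2, 3.57% beside 4.07%). With bicuculline, 2 genes were called higher (Insig1 and Idi1, 7.14% beside 2.0% of all genes) and 0 lower, beside 3.90%. DESeq2 and voom with limma also called 0 lower, and 1 gene on the lower side (Acat2) had an unadjusted p below 0.05 by edgeR. The groups did not overlap for 2 genes at baseline (7.14%, beside 19.9% of all genes) and for 4 with bicuculline (14.3%, beside 20.9%). The median log2 fold change of the 28 genes was 0.07 and 0.13, beside 0.01 and -0.01 over all genes. The median at baseline depended on single libraries and on the scaling, at -0.00866 without Control-shRNA baseline replicate 3, 0.143 without Control-shRNA baseline replicate 1, -0.00967 with library sizes only and -0.0462 on log2(TPM + 1). The median with bicuculline was 0.0624 with library sizes only and 0.0172 on log2(TPM + 1).

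Insig1, an anchor that retains SCAP and the SREBPs in the endoplasmic reticulum and is itself a known SREBP target (ENSMUSG00000045294.11, chr5:28071363-28078662), was the 1 gene called in both comparisons. Its level was 155, 127, 110 and 158 CPM in Control-shRNA baseline and 245, 207, 178 and 250 CPM in Dnmt3a1-shRNA baseline. With bicuculline it was 168, 145, 145 and 150 CPM in Control-shRNA and 318, 267, 221 and 305 CPM in Dnmt3a1-shRNA. Every Dnmt3a1-shRNA library was above every Control-shRNA library. The log2 fold change was 0.68 (SE 0.13, adjusted p = 0.0018) at baseline and 0.87 (SE 0.13, adjusted p = 0.00021) with bicuculline. Libraries of the same number differed by 0.66 to 0.71 at baseline and by 0.61 to 1.02 with bicuculline. Its paralogue Insig2 had 0.03 (SE 0.07) and 0.01 (SE 0.07).

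Acat2 (ENSMUSG00000023832.14, chr17:12942890-12960747) was lower with Dnmt3a1-shRNA, at 195, 153, 135 and 186 CPM in Control-shRNA baseline and 140, 94.7, 89.2 and 124 CPM in Dnmt3a1-shRNA baseline. The groups overlapped by 1 library on each side, and the log2 fold change was -0.58 (SE 0.16, adjusted p = 0.019). With bicuculline it was 128, 107, 113 and 136 CPM against 107, 80.8, 67.1 and 101 CPM, without overlap, at -0.44 (SE 0.16, adjusted p = 0.065). The call at baseline was lost, at log2 fold changes between -0.48 and -0.70 over all omissions, without replicate 1 or 4 of Control-shRNA baseline or replicate 2 or 3 of Dnmt3a1-shRNA baseline. Blocking on the replicate number gave -0.59 (SE 0.06, adjusted p = 4.1e-06) at baseline and -0.46 (SE 0.07, adjusted p = 5.4e-05) with bicuculline.

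Idi1 was at 225, 148, 145 and 223 CPM in Control-shRNA baseline and at 270, 155, 194 and 244 CPM in Control-shRNA bicuculline. Against the Dnmt3a1-shRNA values given above, its log2 fold change was 0.32 (SE 0.21, adjusted p = 0.35) at baseline and 0.64 (SE 0.21, adjusted p = 0.045) with bicuculline. The groups overlapped in both conditions, and the call was lost, at an adjusted p of up to 0.135, without replicate 2, 3 or 4 of Control-shRNA bicuculline or replicate 1, 2 or 4 of Dnmt3a1-shRNA bicuculline. Blocking on the replicate number gave 0.32 (SE 0.08, adjusted p = 0.0055) at baseline and 0.64 (SE 0.08, adjusted p = 1.6e-05) with bicuculline.

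**Figure D4:**
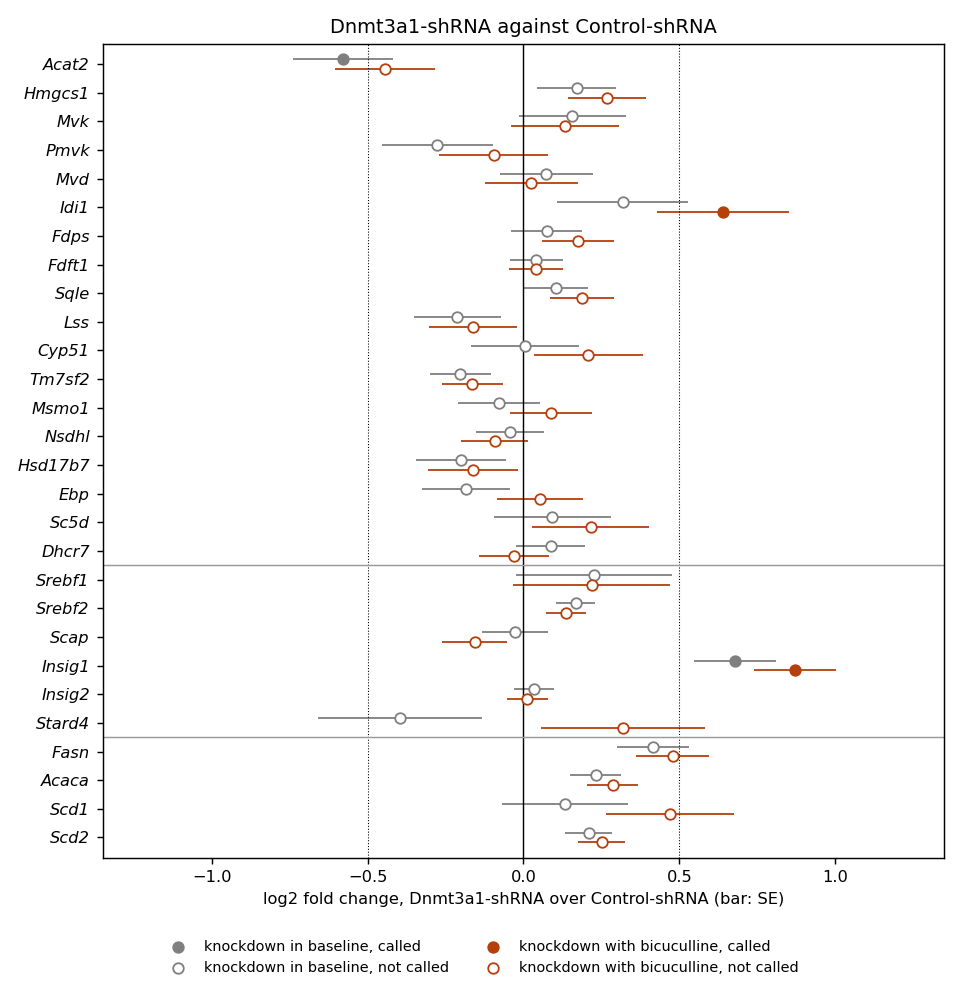
Log2 fold change of Dnmt3a1-shRNA over Control-shRNA (x axis) for the 28 genes (y axis) at baseline (grey) and with bicuculline (orange), with the SE as a bar; filled points were called and dotted lines mark the fold threshold of 0.5. Insig1 (0.68 and 0.87) is the 1 gene filled in both, and the 4 fatty acid genes at the bottom all lie to the right of 0.

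The 4 fatty acid genes all had values above 0 with Dnmt3a1-shRNA in both conditions, except that 3 of 4 did so at baseline on the TPM scales and without Dnmt3a1-shRNA baseline replicate 4. The tools edgeR, DESeq2 and voom with limma each called 0 of them, with 3 at an unadjusted p below 0.05 at baseline by each tool and 4, 4 and 3 with bicuculline. Fasn had 0.42 (SE 0.12, adjusted p = 0.020) at baseline, where the groups did not overlap, and 0.48 (SE 0.12, adjusted p = 0.0084) with bicuculline. Acaca had 0.23 (SE 0.08, adjusted p = 0.065) and 0.29 (SE 0.08, adjusted p = 0.023), and Scd2 0.21 (SE 0.07, adjusted p = 0.065) and 0.25 (SE 0.07, adjusted p = 0.027). Scd1 had 0.13 (SE 0.20) and 0.47 (SE 0.20, adjusted p = 0.13). Each of these differences was opposite in sign to that with bicuculline and smaller than the fold threshold. Blocked on the replicate number, the adjusted p was 0.0053 for Scd1 with bicuculline, and 0.034 for Acaca and 0.011 for Scd2 at baseline.

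None of the remaining control genes was called. Stard4, whose values are given above, had -0.40 (SE 0.26, adjusted p = 0.35) at baseline, lower in 4 of 4 pairs of the same number, and 0.32 (SE 0.26, adjusted p = 0.44) with bicuculline, higher in 3 of 4. Srebf2 had 0.17 (SE 0.06, adjusted p = 0.082), higher in 4 of 4 pairs, and 0.14 (SE 0.06, adjusted p = 0.15). Srebf1 had 0.23 (SE 0.25) and 0.22 (SE 0.25), and Scap had -0.03 (SE 0.11) and -0.16 (SE 0.11). The sterol enzymes other than Acat2 and Idi1 had no adjusted p below 0.05 in either comparison in the fit without a replicate block. Blocking on the replicate number narrowed the errors and left the values within the fold threshold. At baseline the blocked adjusted p was then 0.0078 for Stard4 and 0.023 for Srebf2, and it was 0.0059 for Pmvk, 0.027 for Hsd17b7, 0.030 for Tm7sf2 and 0.047 for Lss, each of the 4 lower in 4 of 4 pairs by a blocked log2 value between -0.265 and -0.197. With bicuculline it was 0.0031 for Hmgcs1, 0.0035 for Sqle, 0.028 for Sc5d, 0.034 for Fdps, 0.036 for Cyp51 and 0.046 for Stard4. The labels do not say that the numbers pair the libraries. Of the 18 sterol enzymes, 15 had replicates 1 and 4 highest in all 4 groups. The 2 knockdown comparisons share no library, and 24 of the 28 genes had the same sign in both, beside 76.3% of all genes.

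Within groups, the sterol enzymes varied together. In all 4 groups, 15 of the 18 sterol enzymes had their highest values in replicates 1 and 4, beside 6.03% of all 17222 genes, and 17 had so in at least 3 groups. Tm7sf2 did so in 1 group. Insig1, Stard4 and Scd1 showed this order in all 4 groups as well, whereas Srebf1 and Scap had their highest values in replicates 2 and 3 in all 4. Of the neighbouring lists described below, 3 of 8 genes of acetyl-CoA and NADPH supply showed it in all 4 groups. So did 5 of 23 other fatty acid enzymes, 3 of 14 genes of sterol uptake and intracellular transport and 2 of 10 of SREBP processing and degradation. In the 2 other lists it was 0 of 13 and 0 of 14. Summed over the 18 enzymes, replicates 1 and 4 held between 4046 and 4512 TPM and replicates 2 and 3 between 3486 and 3941 TPM. The labels do not say what a replicate number stands for. This order was noticed after the values were seen.

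Markers of astrocytes had the opposite order. Of 9 astrocyte markers (Gfap, Aqp4, Aldh1l1, Slc1a3, Slc1a2, Gja1, Gjb6, S100b and Sox9), 6 were highest in replicates 2 and 3 in all 4 groups, beside 5.48% of all genes, and none was highest in replicates 1 and 4. Their summed level was 206 to 322 TPM in replicates 1 and 4 and 298 to 463 TPM in replicates 2 and 3, and these ranges overlapped. Oligodendrocyte lineage markers summed to 89.4 to 132 TPM in replicates 1 and 4 and to 164 to 200 TPM in replicates 2 and 3. Neuronal markers summed to 6505 to 7695 TPM and microglial markers to 2.42 to 8.32 TPM over all libraries. Of 9 neuronal markers, 2 (Gad1 and Gad2) were highest in replicates 1 and 4 in all 4 groups, and 4 in at least 3 groups. Since fewer cells of a type and less RNA per cell cannot be told apart in whole cultures, the part of cell composition in the order of the sterol enzymes was not tested.

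**Figure D5:**
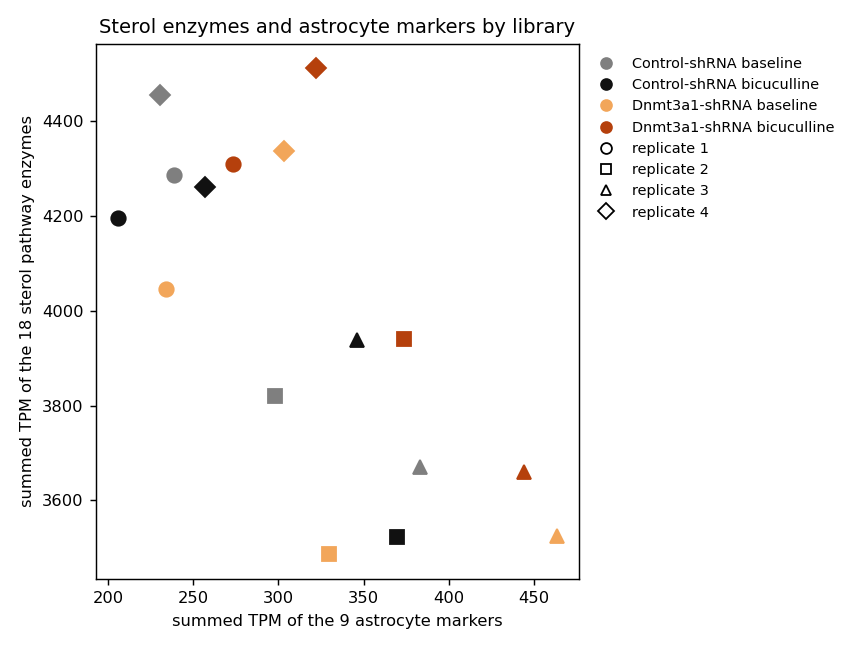
Summed TPM of the 18 sterol pathway enzymes (y axis) against summed TPM of the 9 astrocyte markers (x axis) in the 16 libraries, with the group as colour and the replicate number as symbol. Replicates 1 and 4 (circles and diamonds, 4046 to 4512 TPM) lie above replicates 2 and 3 (squares and triangles, 3486 to 3941 TPM) in each group.

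The same markers were also compared between the groups. Of 8 astrocyte markers tested, Sox9 was called higher with bicuculline for both shRNAs (1.09 and 1.08) and S100b was called higher with Dnmt3a1-shRNA (0.82 at baseline and 0.84 with bicuculline), with list medians of 0.33, 0.32, 0.42 and 0.42 in the order of the 4 comparisons. In the same order, 1, 1, 5 and 4 of these 8 had an unadjusted p below 0.05 by edgeR. Of 9 neuronal markers, Gad1 and Gad2 were called higher and Tubb3 lower with bicuculline for both shRNAs, and Tubb3 was called higher with the knockdown at baseline (0.51). Mog, 1 of 8 oligodendrocyte lineage markers tested, was called lower with bicuculline (-0.83 and -0.79), while the list medians were 0.15 and 0.10. Csf1r, 1 of 3 microglial markers tested, was called lower with the knockdown (-0.66 and -0.75), with list medians of -0.26 and -0.02. Among markers of fibroblasts and vessels, Col1a2 was called higher with bicuculline (0.55 and 0.56), Pdgfrb with bicuculline in Control-shRNA (0.56) and with the knockdown at baseline (0.75), and Lum with the knockdown under bicuculline (0.67). Pcna, 1 of 3 proliferation markers tested, was called higher with bicuculline (0.76 and 0.95), while the list medians were 0.03 and -0.215.

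The share of counts from mitochondrial genes moved with the groups too. It was 4.75, 3.69, 2.80 and 3.94% in Control-shRNA baseline and 5.86, 4.15, 3.34 and 3.87% with bicuculline, higher in 3 of 4 pairs of the same number. In Dnmt3a1-shRNA it was 5.99, 4.84, 2.73 and 4.53% at baseline and 6.596, 5.55, 3.58 and 5.04% with bicuculline, higher in 4 of 4 pairs. With Dnmt3a1-shRNA, the share was higher than with Control-shRNA in replicates 1, 2 and 4 in both conditions. In replicate 3 it was lower at baseline and higher with bicuculline. Replicate 1 was highest and replicate 3 lowest in every group. The part of these marker and mitochondrial shifts in the values of the 28 genes was not tested.

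Genes around the pathway were examined by 6 lists chosen by function. Among 10 genes of SREBP processing and degradation, 2 were called lower with bicuculline for both shRNAs, namely Mbtps1, the site-1 protease that makes the first cut in SREBPs, at -1.06 (SE 0.08) and -1.19 (SE 0.08), and Rnf145, a ubiquitin ligase of the endoplasmic reticulum, at -0.57 (SE 0.20) and -0.62 (SE 0.20). Erlin1 was called higher in Dnmt3a1-shRNA at 0.60 (SE 0.08). With the knockdown, 1 of the 10 was called in each condition, Mbtps2, the site-2 protease that makes the second cut, at -1.24 (SE 0.07) and -1.34 (SE 0.07). The list medians were -0.02, -0.13, 0.09 and 0.06.

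Of 14 genes of sterol uptake and intracellular transport, 1 was called higher and 1 lower in each bicuculline comparison. Osbpl6, an oxysterol-binding protein, was at 0.71 (SE 0.13) and 0.83 (SE 0.13), Gramd1c at -0.86 (SE 0.20) in Control-shRNA and Osbpl2 at -0.67 (SE 0.09) in Dnmt3a1-shRNA. With the knockdown, Scarb1, a receptor for high-density lipoprotein, was the 1 gene called, at -1.44 (SE 0.11) at baseline and -1.73 (SE 0.11) with bicuculline. These were the largest knockdown differences in the 6 lists.

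Of 14 genes of sterol efflux, storage, oxidation and the LXR receptors, 12 were tested. Ch25h, which makes 25-hydroxycholesterol, rose most with bicuculline, at 2.49 (SE 0.32, adjusted p = 5.8e-06) and 2.25 (SE 0.35, adjusted p = 3.9e-05). Soat1, which esterifies cholesterol for storage, was higher at 0.72 (SE 0.12) and 0.70 (SE 0.13), and Abcg1, a sterol exporter, was lower at -0.99 (SE 0.14) and -1.23 (SE 0.14). Abcg4 and Lpcat3 were also called lower in Dnmt3a1-shRNA, at -0.63 (SE 0.08) and -0.55 (SE 0.09). With the knockdown, edgeR, DESeq2 and voom with limma each called 0 of the 12 in either condition. At an unadjusted p below 0.05 they had 1, 2 and 1 genes at baseline and 4 each with bicuculline.

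Among 23 other fatty acid enzymes, 4 were called higher and 2 lower with bicuculline in Control-shRNA, and 3 and 2 in Dnmt3a1-shRNA. Hsd17b12, of the microsomal elongation cycle, had 0.73 (SE 0.12) and 1.05 (SE 0.13), Acsl4, an activating enzyme for polyunsaturated fatty acids, 0.75 (SE 0.15) and 0.89 (SE 0.15), and Elovl5, an elongase, 0.57 (SE 0.11) and 0.62 (SE 0.11), with Elovl1 at 0.64 (SE 0.19) in Control-shRNA. The 2 called lower were the mitochondrial fatty acid synthesis enzymes Mcat, at -0.87 (SE 0.13) and -1.21 (SE 0.13), and Oxsm, at -1.16 (SE 0.13) and -1.04 (SE 0.14). Oxsm was also lower with the knockdown, at -1.01 (SE 0.13) and -0.89 (SE 0.14), as was Acsl6, at -0.72 (SE 0.07) and -0.89 (SE 0.07), and no other gene of the list was called there. While Fasn and Acaca had values below 0 with bicuculline, the median of this list was 0.18 and 0.115.

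Of 13 genes of other isoprenoid branches, Rabggtb, a subunit of the transferase that prenylates Rab proteins, was called higher with bicuculline at 0.54 (SE 0.06) and 0.66 (SE 0.06), and Pdss2, of the ubiquinone side chain, lower at -0.54 (SE 0.09) and -0.58 (SE 0.09). Rce1, a protease of prenylated proteins, was called higher in Dnmt3a1-shRNA at 0.64 (SE 0.10). With the knockdown, Fnta, a subunit of the farnesyl and geranylgeranyl transferases, was lower at -0.57 (SE 0.06) and -0.67 (SE 0.06), and Rce1 at -0.67 (SE 0.10) and -0.53 (SE 0.10). Of 8 genes of acetyl-CoA and NADPH supply, edgeR, DESeq2 and voom with limma each called 0 in any of the 4 comparisons, each with 2, 3, 3 and 2 genes at an unadjusted p below 0.05 and list medians of -0.03, -0.03, 0.14 and 0.13.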

How the data were processed

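Bulk RNA-seq of 16 libraries, 4 in each of 4 groups set by shRNA and treatment, was analysed. Per the study's methods and the submitters' processing notes, 100 bp paired-end reads were trimmed with Trim Galore (0.6.4) and quantified with kallisto (given as 0.4.6 in the processing notes) on GRCm38.p6. The authors deposited, per library, kallisto estimated counts summed per gene, which were not scaled. They also deposited TPM, which kallisto scales to transcript length and library total. Kallisto divides reads that fit several similar transcripts, so values of genes with similar copies (paralogues such as Scd1 and Scd2, or pseudogenes) can be less certain. The protocol names no strand-specific kit.

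Of 55385 identifiers, 55144 matched GENCODE M21 (GRCm38) without the version. Estimated counts were rounded, filtered with filterByExpr, scaled by TMM and fitted over the 4 groups with edgeR (4.0.16, R 4.3.3) by the quasi-likelihood test, with Benjamini-Hochberg adjustment over 17222 genes. The SE was taken as the absolute log2 fold change over the square root of F. This differs from the study's methods, which used voom with limma, and the latter (limma 3.58.1) and DESeq2 (1.42.0) were run as alternatives with other scalings, filters, a replicate block, TPM scales and omission of each library. A replicate block without a fold threshold was added after the data were seen. The edgeR step was tested on simulated data.

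Each library held 28912697 to 29586355 estimated counts, of which 2.73 to 6.60% were mitochondrial. Replicates of a group differed beyond counting noise (the lowest chi-square of a pair, divided by its degrees of freedom, was 7.92). The labels do not say that replicate numbers mark shared preparations, so p-values measure the spread between these libraries. Deviations of libraries with the same number correlated at 0.107 to 0.166 for bicuculline in Control-shRNA and at 0.168 to 0.307 for the knockdown at baseline, where the numbers were taken to pair the libraries. They correlated at 0.0566 to 0.279 for bicuculline in Dnmt3a1-shRNA and at 0.0268 to 0.329 for the knockdown with bicuculline, where they were not. Even so, 15 of the 18 sterol enzymes had replicates 1 and 4 highest in all 4 groups. For these genes, the fit without a block counts spread shared by libraries of the same number as error.

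The 28 genes and all lists were chosen with earlier results of these data known. All 28 were named, with up to 3 called genes per direction, comparison and neighbouring list, those with the largest fold changes, and Dnmt3a. Promoter sequences are from RefSeq (GRCm38.p6).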

Additional observations from a re-analysis of the deposited data

Results flagged for a closer look

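Of 112 groups of 4 libraries (28 genes in 4 groups), 3 held a library far from the others by Dixon's ratio at its 95% critical value. Chance flags about 1 in 20 groups. Tm7sf2 stood at 68.2 CPM in Control-shRNA bicuculline replicate 4, against 59.7 to 60.5 CPM in the other libraries of the group. Dhcr7 stood at 124 CPM in Control-shRNA bicuculline replicate 1, against 110 to 112 CPM, and this library was still below every baseline library. Scap stood at 122 CPM in Dnmt3a1-shRNA bicuculline replicate 3, against 97.3 to 102 CPM.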

How the results depend on the processing

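No called value of the 28 genes changed sign under any alternative. Counts are given as called higher and called lower. In the main analysis they were 3 and 3 for bicuculline in Control-shRNA, 6 and 3 for bicuculline in Dnmt3a1-shRNA, 1 and 1 for the knockdown at baseline and 2 and 0 for the knockdown with bicuculline. For bicuculline in Control-shRNA they were 2 and 6 with library sizes only, 4 and 8 with no fold threshold, 3 and 4 with no filter, and 1 and 6 on both TPM scales. For bicuculline in Dnmt3a1-shRNA they were 3 and 4 with library sizes only, 9 and 5 with no fold threshold, 5 and 5 on both TPM scales, and 6 and 2 with DESeq2, with its size factors in edgeR, with at least 10 counts in every library and with only the 2 groups compared. For the knockdown at baseline they were 2 and 1 with no fold threshold. For the knockdown with bicuculline they were 5 and 0 with no fold threshold, 2 and 1 with library sizes only and 1 and 1 on both TPM scales. The alternatives not listed here or in the next 2 paragraphs gave the main counts. The background moved as well: with no fold threshold 7131, 7919, 2809 and 3044 of all 17222 genes were called, 53.0, 54.8, 50.2 and 56.5% of them lower, and with library sizes only 4396, 5108, 1119 and 1109, 68.9, 67.2, 85.8 and 80.8% of them lower. The TMM factors, which library sizes only leave out, were 1.043 to 1.124 in Control-shRNA baseline and 0.928 to 1.002 with bicuculline. In Dnmt3a1-shRNA they were 0.9627 to 1.075 at baseline and 0.8711 to 0.968 with bicuculline. Why the factors differed between the groups was not tested.

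With the replicate block the counts were 3 and 3, 6 and 3, 1 and 1, and 2 and 0, and no call among the 28 genes changed. With the replicate block and no fold threshold together they were 9 and 10, 10 and 10, 6 and 6, and 12 and 1, when 8756, 9398, 4743 and 5157 of all 17222 genes were called.

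Without single libraries, the counts ranged from 2 to 5 higher and 2 to 5 lower for bicuculline in Control-shRNA, from 4 to 6 and 2 to 4 for bicuculline in Dnmt3a1-shRNA, from 1 to 1 and 0 to 1 for the knockdown at baseline, and from 1 to 2 and 0 to 1 for the knockdown with bicuculline. The depth was alike in all libraries, and 4 libraries per group limit what differences near the fold threshold can show.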
